A study of Mus musculus with 6 samples.

Results

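The Hedgehog genes examined here are the 3 ligand genes Shh, Ihh and Dhh, the receptor gene Ptch1, the ligand-binding antagonist gene Hhip, the transducer gene Smo and the 3 transcription factor genes Gli1, Gli2 and Gli3. They were chosen by gene symbol, and all 9 were present among the 25302 rows of the deposited expression table. RNA had been sequenced from biliary epithelial cells of mouse liver, the cells that line the bile ducts, in 3 Control and 3 Sox9cKO libraries. Control samples had the genotype Sox9fl/fl, in which the gene of the transcription factor Sox9 is floxed and no Cre is present. Sox9cKO samples had the genotype Sox9fl/fl:AlbCre+/-, in which a Cre recombinase driven by the albumin promoter acts on the same floxed alleles. Both groups thus carried floxed Sox9, and an effect of Cre itself cannot be told apart from that of the deletion. The labels do not say how the cells were isolated, how old the mice were, or whether each library came from a separate animal, so p-values measure only the spread between these libraries.

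Hedgehog ligands are secreted lipid-modified proteins that bind Ptch1, which otherwise keeps the membrane protein Smo inactive. Active Smo works at the primary cilium, where it converts Gli2 and Gli3 from repressors to activators, and transcription of Ptch1, Gli1 and Hhip is a common readout because all are direct targets. In the liver, bile duct cells are known as a source of Hedgehog ligands after injury, and stellate cells and other mesenchymal cells are known as responders.

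None of the 7 Hedgehog genes that could be tested passed the threshold between genotypes. In 3 of the 9, all of them among the 7 tested, the groups did not overlap. The share among all tested genes was 24.2% (10.8% lower in Sox9cKO). Ptch1, Dhh and Gli2 were lower in every Sox9cKO library than in any Control library. Ptch1 stood at 69.4% of its Control mean, Dhh at 52.9% and Gli2 at 60.1%. Smo, Gli1, Gli3, Hhip, Ihh and Shh had overlapping groups, and Shh, Ihh, Gli3 and Hhip were highest in 1 Sox9cKO library. Levels are given as normalized reads (scaled by 1 factor per library), and those of single libraries stand in the order of replicates 1, 2 and 3. The log2 fold change is that of the value plus a pseudocount of 1, Sox9cKO minus Control.

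The sequence just upstream of the transcript start is shown for the 3 Hedgehog genes whose groups did not overlap and for Arl13b, a cilium gene described below that was the only other pathway gene called. Each is the 250 bases before the start of a RefSeq transcript on GRCm38.p6, written 5′ to 3′ on the gene's strand. The windows are chr13:63565736-63565985 (minus strand), chr15:98898541-98898790 (minus strand), chr1:119053620-119053869 (minus strand) and chr16:62847041-62847290 (minus strand). Capitals mark the GC box GGGCGG or its reverse complement CCGCCC.
Ptch1: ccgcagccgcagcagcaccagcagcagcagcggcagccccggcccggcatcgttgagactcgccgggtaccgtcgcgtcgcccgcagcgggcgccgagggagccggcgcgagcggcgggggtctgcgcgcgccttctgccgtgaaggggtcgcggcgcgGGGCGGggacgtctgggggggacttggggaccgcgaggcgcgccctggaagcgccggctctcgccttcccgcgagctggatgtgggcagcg
Dhh: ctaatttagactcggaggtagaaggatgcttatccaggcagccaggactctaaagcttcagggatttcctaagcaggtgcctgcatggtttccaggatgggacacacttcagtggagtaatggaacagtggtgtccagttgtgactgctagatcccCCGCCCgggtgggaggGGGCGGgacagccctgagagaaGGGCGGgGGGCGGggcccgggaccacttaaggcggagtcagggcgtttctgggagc
Gli2: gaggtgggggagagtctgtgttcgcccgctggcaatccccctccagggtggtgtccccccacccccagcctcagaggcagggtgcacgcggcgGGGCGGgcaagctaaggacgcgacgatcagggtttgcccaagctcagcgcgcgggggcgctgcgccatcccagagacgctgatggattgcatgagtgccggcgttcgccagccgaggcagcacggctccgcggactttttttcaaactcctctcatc
Arl13b: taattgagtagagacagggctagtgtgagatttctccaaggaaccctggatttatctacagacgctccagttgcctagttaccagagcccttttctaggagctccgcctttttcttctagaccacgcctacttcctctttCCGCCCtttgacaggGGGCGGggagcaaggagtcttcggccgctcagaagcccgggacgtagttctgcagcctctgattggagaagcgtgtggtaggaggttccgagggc
A GC box was present upstream of 6 of the 7 Hedgehog genes with a sequence in the RefSeq table (Ihh, Dhh, Ptch1, Gli2, Gli3 and Hhip, but not Smo), and in 32.7% of all 32851 upstream windows of that table. The Dhh window held 4 of these, within 94 bases of the start, and the Ptch1 and Gli2 windows 1 each. The Gli motif GACCNCCCA, searched on both strands, was in none of the 7 windows and in 0.868% of all windows. The Sox motif, searched as ACAAAG or ACAATG on both strands, was in none of the 7 and in 25.2% of all windows. GC content ranged from 59.6% (Dhh) to 78.4% (Ptch1) in these 7 windows, against a median of 52.4% over all windows. Such matches describe the letters of these windows only.

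Each library held between 11883496 and 16191990 reads in genes. Sox9, the targeted gene, was lower in all 3 Sox9cKO libraries, at 53.2% of the Control mean (log2 fold change -0.91, SE 0.095, limma with Benjamini-Hochberg adjustment, adjusted p = 0.00501). The labels do not give the floxed exons, so reads of intact and of deleted transcripts could not be separated. Of the 12 biliary markers listed (among them Krt19, Epcam and Cdh1) all were present, with summed levels of 194067 to 246858 in Control and 176496 to 240462 in Sox9cKO. Markers of other cells were present too. The 10 endothelial markers summed to 11189, 36284 and 1630 in Control and to 28403, 37166 and 5983 in Sox9cKO. These groups overlapped, but the sum was higher in Sox9cKO in each same-numbered pair, and all 10 markers had an estimate above 0 (median 1.09). With limma 0 were called, and 1 (Vwf) was called higher with the replicate block. The 14 markers of stellate cells, fibroblasts and pericytes summed to between 3496 and 4260 in Control and between 4241 and 5991 in Sox9cKO, and the defining marker Lrat was between 10.9 and 48.3 in all libraries. Of the 13 tested, 7 had an estimate below 0 and 6 above (median -0.035), 0 were called and every marker had overlapping groups. Reln, the most abundant of this list, was 1705 ± 79.7 in Control and 2316 ± 648 in Sox9cKO. The 12 hepatocyte markers summed to between 24956 and 38730 in Control and between 47380 and 78735 in Sox9cKO, with most of each sum from Alb and Apob. Of these 12, 10 had an estimate above 0 and 3 were called higher with limma (Apob, Serpina1a and Tat), while Cyp2e1 and Cyp3a11 were between 30.6 and 128 with overlapping groups. Leukocyte markers (7 of 10 present, without Cd3e, Ncr1 and S100a8) summed to 1060 to 1172 in Control and 1511 to 1842 in Sox9cKO. Csf1r, the largest part of that sum, was called higher, but 5 of the 6 tested leukocyte markers had an estimate below 0, and the pan-leukocyte marker Ptprc was lower in every Sox9cKO library (1.13 to 16.9) than in Control (19.6 to 37.0). Mesothelial markers (all 4 present) summed to 891 to 921 in Control and 1121 to 2135 in Sox9cKO. Msln was called higher, Wt1 was higher with no overlap, and Upk3b and Gpm6a were lower with no overlap. Schwann cell markers (4 of 5, without Sox10) summed to 1248 to 1370 and 1152 to 1399. In bulk RNA, fewer cells of a type and less RNA per cell cannot be told apart.

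**Figure D1:**
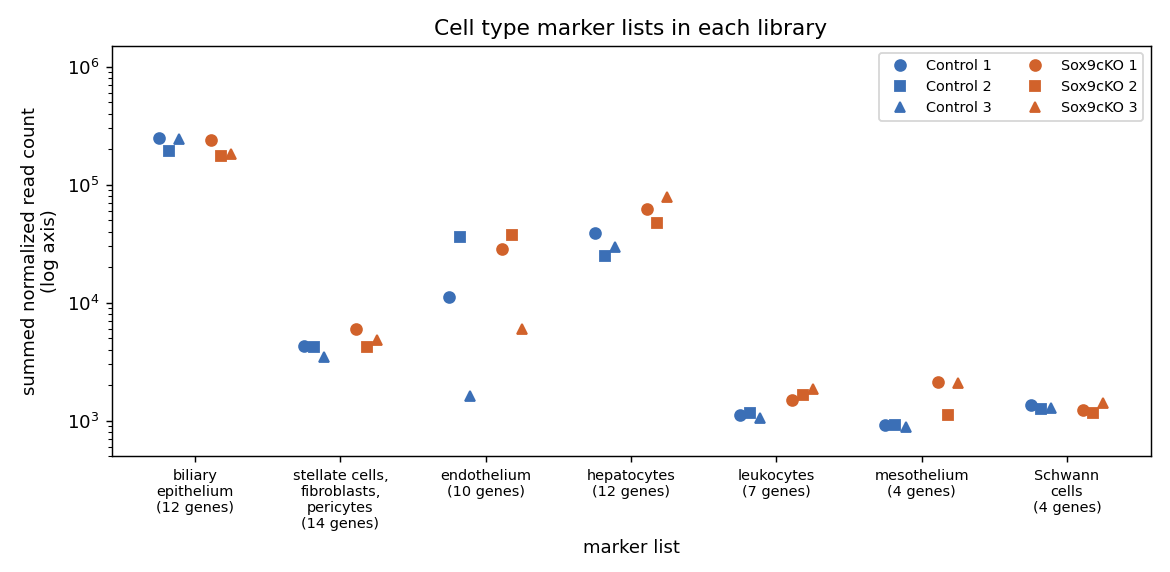
Summed normalized read counts of the cell type marker lists (log axis) in the 3 Control (blue) and 3 Sox9cKO (orange) libraries, with 1 symbol per replicate number. Endothelial sums ranged from 1630 to 37166 across libraries of both groups, while biliary sums stayed between 176496 and 246858.

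Dhh, the Hedgehog ligand best known from Schwann cells, Sertoli cells and endothelium, had normalized read counts of 42.9, 57.5 and 39.2 in Control. The Sox9cKO libraries had 18.9, 25.5 and 29.4. Every Sox9cKO value lay under the lowest Control value. The means were 46.5 ± 9.72 in Control and 24.6 ± 5.32 in Sox9cKO (SD, n = 3). The log2 fold change was -0.89 (SE 0.29, 95% interval -1.58 to -0.20), which did not pass the threshold (limma, Benjamini-Hochberg adjusted p = 0.174, and 0.110 with the replicate block). These values rest on 34 to 62 reads in the Control libraries and 19 to 27 in the Sox9cKO libraries. In GENCODE M21, exons of Dhh share 546 bases (12.4% of its exon length) with its neighbour Rhebl1 on the same strand and 1107 bases (25.2%) with the antisense transcript Gm49442. Rhebl1 itself was between 19.6 and 39.0 in Control and between 15.9 and 21.5 in Sox9cKO, so the split of reads between the genes is uncertain. Gm49442 was at most 4.64 in any library. With the mean log2 level of the endothelial markers as a covariate, the log2 fold change of Dhh was -0.94 (limma, adjusted p = 0.182).

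Ihh, the ligand known for its role in growing cartilage and in gut epithelium, had the highest mean level of the 3 ligands per length of exon. Its counts were 63.9, 43.6 and 64.5 in Control against 117, 20.8 and 43.0 in Sox9cKO. The Sox9cKO libraries thus held both the highest and the lowest value of the series, and the groups overlapped. The means were 57.3 ± 11.9 and 60.4 ± 50.6 (SD, n = 3), with a log2 fold change of -0.25 (SE 0.58, 95% interval -1.61 to 1.11, limma adjusted p = 0.873). The sign of this estimate depended on a single library: it was -0.89 without Sox9cKO replicate 1 and 0.33 without Sox9cKO replicate 2.

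Shh, the ligand that patterns the neural tube and limb, rested on 8 reads or fewer in 5 of the 6 libraries. It had 6.72, 4.64 and 4.61 normalized reads in Control against 29.8, 4.73 and 6.79 in Sox9cKO. Sox9cKO replicate 1 stood alone, with 30 reads (exact Poisson 95% interval 20.2 to 42.8), while no other library had more than 8 (3.45 to 15.8). These intervals cover counting error only. With a mean of 9.56 over the libraries, Shh was under the minimum mean of 10 set for the test. Its log2 difference was 0.83, and the exact permutation test over the 6 libraries gave p = 0.2 (two-sided; 0.1 is the smallest p that 3 against 3 allows). The same library also had the highest Ihh, Gli3 and Hhip values. It had the highest sum of stellate cell, fibroblast and pericyte markers (5991) as well, and its Col1a1 level was 759, against 197 and 158 in the other Sox9cKO libraries. The list did not move as one there, since Lrat (10.9) and Rgs5 (636) were at their lowest of the 6 libraries. The part of those cells in the result was not tested. Antisense transcripts overlap Shh exons in GENCODE M21, and 1 of them, 9530036O11Rik, was at most 5.97 in any library.

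Ptch1, the receptor and a direct target of the pathway, had 641, 552 and 569 normalized reads in Control against 336, 445 and 443 in Sox9cKO. No Sox9cKO library reached the lowest Control library. The means were 588 ± 47.3 and 408 ± 62.1 (SD, n = 3), a log2 fold change of -0.53 (SE 0.16, 95% interval -0.90 to -0.17). With adjustment over all genes this did not pass (limma, adjusted p = 0.132, and 0.0858 with the replicate block). Among same-numbered libraries the log2 difference was -0.93, -0.31 and -0.36, lower in 3 of 3. With the endothelial covariate the log2 fold change was -0.51 (limma, adjusted p = 0.157). Hepatocyte marker sums, which did not overlap between the groups either, ran in the other direction (24956 to 38730 in Control, 47380 to 78735 in Sox9cKO). Within these sums Apob had means of 2712 and 22111, while the groups of Alb overlapped. Only 5 of the 12 hepatocyte markers had groups that did not overlap, all of them higher in Sox9cKO. The part of hepatocytes in the Ptch1 values was not tested. Hhip, which encodes a membrane-anchored protein that binds and sequesters Hedgehog ligands and is also a target, had 8.41, 20.4 and 9.22 in Control against 20.9, 4.73 and 4.53 in Sox9cKO. The groups overlapped, with 1 high library in each, and the log2 fold change was -0.52 with an interval from -2.07 to 1.02 (limma, adjusted p = 0.738).

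Smo, the transducer that Ptch1 inhibits, had 511, 321 and 404 normalized reads in Control against 434, 469 and 539 in Sox9cKO. Control replicates 2 and 3 lay below every Sox9cKO library, but Control replicate 1 lay among them, so the groups overlapped. The means were 412 ± 95.2 and 480 ± 53.5 (SD, n = 3), giving 0.24 on the log2 scale (SE 0.19, 95% interval -0.21 to 0.70, limma adjusted p = 0.583). The ratio of Ptch1 to Smo reads within a library, which does not depend on the size factors and was chosen after the values were seen, was 1.25, 1.72 and 1.41 in Control and 0.775, 0.95 and 0.821 in Sox9cKO. The groups did not overlap, with means of 1.46 ± 0.237 and 0.849 ± 0.0903 (SD, n = 3). Its size depends on the unequal exon lengths of the genes, so it serves only to compare libraries. No test was made of this ratio.

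**Figure D2:**
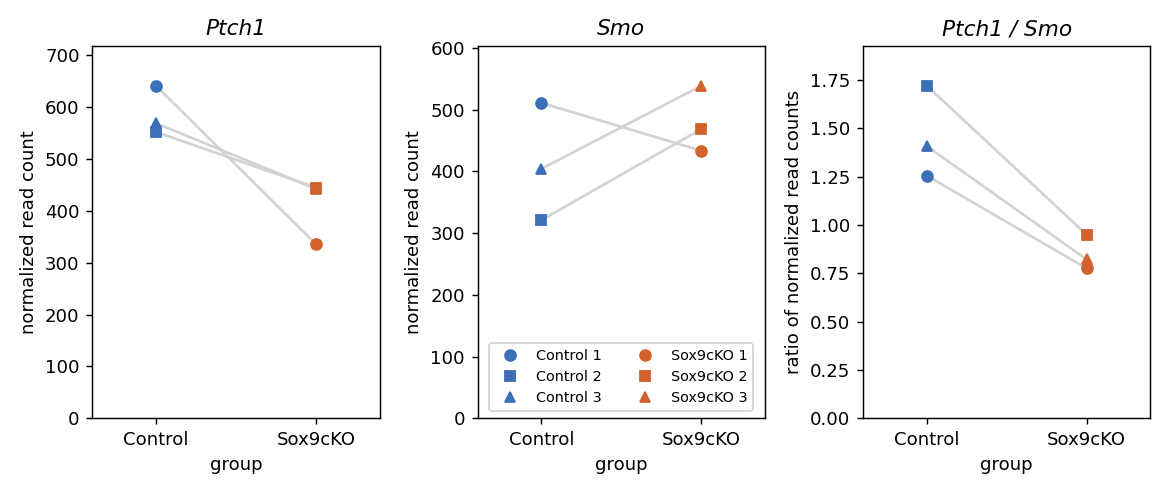
Normalized read counts of Ptch1 and Smo and their ratio, with grey lines joining libraries of the same replicate number. Ptch1 was lower in Sox9cKO in each pair, Smo was higher in 2 of 3 pairs, and the ratio went from 1.25 to 1.72 in Control to 0.775 to 0.95 in Sox9cKO.

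Gli2, the main activator among the Gli factors, had 19.3, 21.3 and 23.0 normalized reads in Control against 17.9, 5.67 and 14.7 in Sox9cKO. The groups did not overlap, but the closest values, 19.3 and 17.9, came from 23 and 18 reads. The means were 21.2 ± 1.86 and 12.8 ± 6.35 (SD, n = 3), with a log2 fold change of -0.82 (SE 0.46, 95% interval -1.89 to 0.25, limma adjusted p = 0.409). Sox9cKO replicate 2, with 6 reads, weighed most on this estimate, which was -0.36 without it.

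Gli1, a factor that acts only as an activator and is itself induced by the pathway, was low throughout. It had 8.41, 9.28 and 6.91 normalized reads in Control against 10.9, 18.0 and 7.92 in Sox9cKO. The groups overlapped, since Sox9cKO replicate 3 lay within the Control range, and the log2 fold change was 0.47 with an interval from -0.53 to 1.47 (limma, adjusted p = 0.63). Gli3, which acts mostly as a repressor when the pathway is off, had 8.41, 9.28 and 4.61 in Control against 15.9, 9.45 and 9.06 in Sox9cKO. Its mean of 9.45 was under the minimum for the test, the groups overlapped narrowly, and the log2 difference was 0.57 (exact permutation test, two-sided p = 0.2). Arhgap9, on the opposite strand, shares 62 exon bases (1.24%) with Gli1. Both Gli genes were measured by 4 to 19 reads a library.

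**Figure D3:**
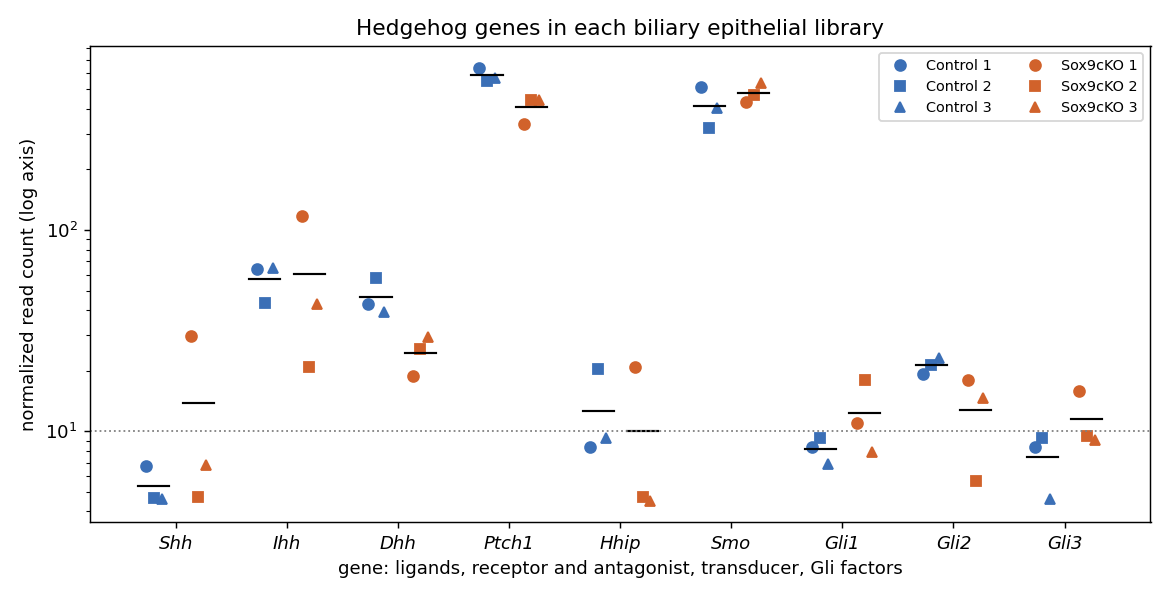
Normalized read counts (log axis) of the 9 Hedgehog genes in each Control (blue) and Sox9cKO (orange) library, with 1 symbol per replicate number, a bar at each group mean and a dotted line at the minimum mean of 10 for the test. Ptch1, Dhh and Gli2 are the genes whose groups do not overlap.

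Of the 9 genes, 7 reached the minimum mean and were tested, and 0 were called at an adjusted p under 0.05 with limma. Over all 17153 genes tested, 510 were called, or 2.97% (0.939% lower and 2.03% higher in Sox9cKO). At an unadjusted p under 0.05, limma gave 2 of the 7 (Ptch1 at 0.0102 and Dhh at 0.018), against 17.8% of all genes tested. edgeR's quasi-likelihood test and DESeq2 on the recovered reads also called 0, each with the same 2 genes at an unadjusted p under 0.05. Groups did not overlap in 3 of the 9, all of them among the 7 tested, against 24.2% of all tested genes. All 3 were lower in Sox9cKO, against 10.8% of all tested genes, and 0 were higher, against 13.4%. For each of these 3 genes the exact permutation test gave p = 0.1, the smallest that 3 against 3 allows. That p-value follows from the lack of overlap by which the 3 were picked, so it adds nothing to it. The estimates of the 7 tested genes ran from -0.89 to 0.47, with 5 below 0. Their median was -0.52, beside a median of 0.036 for all genes tested. A filter on low values lets a gene pass through its higher group, so the 7 do not stand for all 9. Shh and Gli3, which the filter left out, had log2 differences of 0.83 and 0.57, both above 0 and so outside this median.

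**Figure D4:**
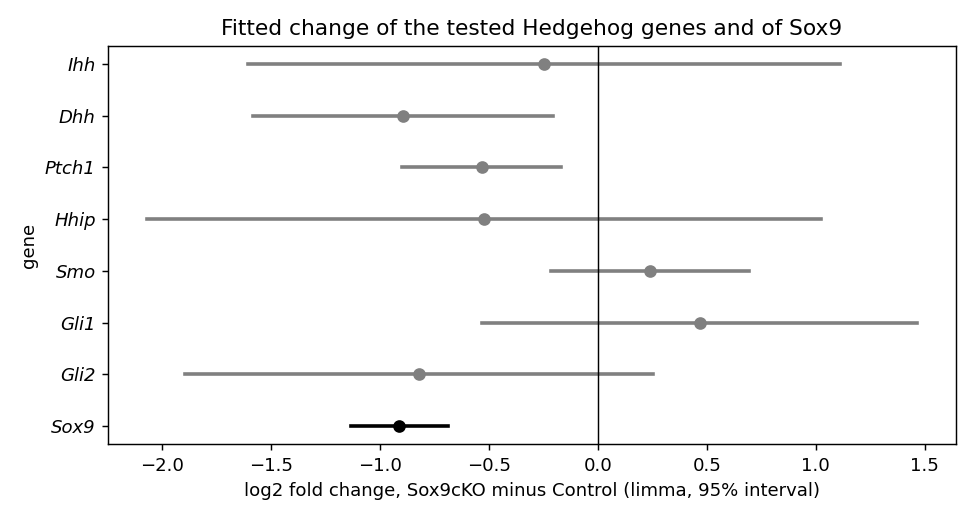
Fitted log2 fold change (Sox9cKO minus Control) with its 95% interval from limma for the 7 tested Hedgehog genes (grey, not called) and for Sox9 (black, called). The intervals of Dhh (-1.58 to -0.20) and Ptch1 (-0.90 to -0.17) leave out 0 before adjustment for the number of genes.

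To rank the genes by level, values were taken per length, as normalized reads per kilobase of exon, using the union of exons in GENCODE M21. In Control the order was Smo (73.3 ± 16.9), Ptch1 (41.4 ± 3.34), Ihh (18.8 ± 3.90), Dhh (10.6 ± 2.21), Gli2 (3.09 ± 0.27), Shh (1.87 ± 0.426), Gli1 (1.64 ± 0.24), Hhip (1.4 ± 0.74) and Gli3 (0.775 ± 0.259; SD, n = 3 each). Each of the first 5 stood above the next in all 3 libraries, whereas Shh, Gli1, Hhip and Gli3 overlapped with their neighbours in the order. In Sox9cKO, Smo (85.5 ± 9.52) again led Ptch1 (28.8 ± 4.38), but Ihh (19.8 ± 16.6) reached from 6.82 to 38.5, on both sides of Ptch1, and Gli2 (1.86 ± 0.924) overlapped with Shh, Gli1, Gli3 and Hhip. Among all tested genes, Smo stood at percentile 62.5 of reads per kilobase and Ptch1 at percentile 42.5. The ligands stood at percentile 28.3 (Ihh), 12.2 (Dhh) and 3.01 (Shh), and Gli2, at 1.68, was the highest of the Gli factors and Hhip. The exon union of Ptch1 is long (14185 bases), which lowers its value where the cells use shorter transcripts, and the annotation behind the deposited counts is not given in the sources used here.

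Genes with the most similar profile over the 6 libraries were found by the mean absolute difference of log2 values centred on each gene's mean. For Ptch1 these were Cp (difference 0.046), the plasma copper oxidase ceruloplasmin, Slc38a4 (0.0484), an amino acid transporter, and Itpr1 (0.0488), an intracellular calcium channel. Their own log2 fold changes were -0.62, -0.59 and -0.50, and none was called (limma, adjusted p = 0.098, 0.139 and 0.131). For Dhh the nearest were Mfsd4b5 (0.0777), B3gnt6 (0.0986) and Snord43 (0.0995). For Smo they were Sowaha (0.0345), Eefsec (0.0583) and Tada2a (0.0606), and for Gli2 they were Serpinb8 (0.125), Zfp808 (0.136) and Adssl1 (0.155). Scube2, which helps release Hedgehog ligands and is described with its list below, was among the 3 nearest to Hhip (0.21), after Podxl2 (0.15) and Kcnh3 (0.193). The nearest genes of Ihh (Zfp264, Ccdc113 and Acss1) were at 0.16 to 0.17, and those of Gli1 (Shfl, Marchf9 and Aldh3b1) at 0.0791 to 0.098.

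The rest of the pathway was examined through 5 lists of 54 genes, of which 52 were in the table and 50 were tested. With limma, 1 was called lower (Arl13b), against 0.939% of all genes, and 0 were called higher, against 2.03%. With the replicate number as a block, 3 were called, against 8.05% of all genes: Arl13b lower, and Gpc3 and Lrp2 higher. Over the 50 the median log2 fold change was 0.072, with 21 below 0 and 29 above. Groups did not overlap in 15 of the 50, of which 5 were lower and 10 higher in Sox9cKO, against 10.8% and 13.4% of all tested genes.

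Arl13b, a small GTPase of the ciliary membrane that is needed for normal Hedgehog transduction, had 1096, 814 and 900 normalized reads in Control against 427, 556 and 482 in Sox9cKO. It was lower in every Sox9cKO library, with a log2 fold change of -0.94 (SE 0.16, limma with Benjamini-Hochberg adjustment, adjusted p = 0.0294). The call was lost in 4 of the 6 fits that left out 1 library (without Control replicate 1 or 3, or without Sox9cKO replicate 1 or 3; adjusted p up to 0.12), at log2 fold changes between -1.03 and -0.82 over all 6. It was also lost without limma's intensity trend (adjusted p = 0.0702). Of the other 15 genes that act with Smo and the Gli factors at the cilium, none was called. Sufu, which holds Gli proteins in the cytoplasm, was 331 ± 12.6 in Control and 456 ± 37.4 in Sox9cKO, and Kif3a, a motor of ciliary transport, was 472 ± 29.8 and 651 ± 81.9 (SD, n = 3). Their groups did not overlap, and the log2 fold change of each was 0.46 (Benjamini-Hochberg adjusted p = 0.118 and 0.139 with limma). Among the most abundant genes of the list, Evc2 and Evc, which relay the signal from Smo, had log2 fold changes of -0.017 and -0.27, and Grk2, the kinase that phosphorylates active Smo, 0.078.

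Of 6 genes for making and releasing ligands, 5 were tested and 0 called. Scube3, whose secreted product belongs to a family that helps release Hedgehog ligands, had 410, 360 and 524 normalized reads in Control against 661, 1679 and 788 in Sox9cKO. The groups did not overlap, and limma gave a log2 fold change of 1.16 (adjusted p = 0.137), which DESeq2 called and limma and edgeR did not. Disp1, which exports the ligands, was 178 ± 28.3 and 167 ± 24.8 (log2 fold change -0.092), and Hhat, which adds their palmitate, was 66.0 ± 26.8 and 86.8 ± 15.3 (0.45). Scube2 was 16.8, 41.8 and 19.6 in Control against 28.9, 11.3 and 14.7 in Sox9cKO, with groups that overlapped.

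All 9 co-receptors and surface modulators were tested and 0 were called by limma without the block, with a median log2 fold change of 0.31. Gpc3, a glypican that competes with Ptch1 for ligand, had 47.9, 39.9 and 31.1 normalized reads in Control against 148, 76.5 and 70.2 in Sox9cKO. Its groups did not overlap, and the log2 fold change of 1.23 did not pass with limma (adjusted p = 0.119). It passed with limma and the replicate block (0.0282), and also with DESeq2 without a block and with edgeR and the block. Lrp2, an endocytic receptor that can bind Shh, had 14.3, 39.0 and 26.5 normalized reads in Control against 33.8, 125 and 64.5 in Sox9cKO, with overlapping groups (limma, adjusted p = 0.249; blocked, 0.0252). The co-receptor genes Cdon, Boc and Gas1, which help ligands reach Ptch1, had log2 fold changes of -0.31, -0.088 and 0.32. Mgrn1 and Mosmo, whose products lower Smo at the cell surface, had -0.079 and -0.085.

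The 11 kinases and ubiquitin ligases that act on Gli proteins were all tested, and 0 were called by limma, with or without the block. Gsk3b, one of the kinases that phosphorylate Gli proteins, was 2370 ± 196 in Control and 1834 ± 141 in Sox9cKO (SD, n = 3). Its groups did not overlap, with an estimate of -0.37 on the log2 scale (limma, adjusted p = 0.161, and 0.0596 with the block). It was called lower by edgeR with the replicate block. Csnk1a1, Cul3 and Fbxw11 had log2 fold changes of 0.034, 0.14 and -0.063. Among 12 further target genes, 10 were in the table (Foxf2 and Nkx2-2 were not), 9 were tested and 0 were called. Bcl2, which protects from cell death, was 336 ± 20.4 and 250 ± 41.9, and Jag2, a Notch ligand, 136 ± 20.3 and 86.4 ± 25.8, both with groups that did not overlap and log2 fold changes of -0.43 and -0.69 (limma, adjusted p = 0.22 and 0.241). Bmp4, a growth factor, lay on the other side, at 16.5 ± 1.85 and 39.7 ± 13.2 (1.16, limma adjusted p = 0.141). So did Sfrp1, at 20.2 ± 2.22 and 37.0 ± 16.7 (0.76, limma adjusted p = 0.344). The groups of these 2 did not overlap either. Of the 9 tested targets, 3 had an estimate below 0 and 6 above (median 0.13). The cell cycle genes Ccnd1 and Ccnd2 had log2 fold changes of 0.065 and 0.13, and Foxl1 and Foxf1, transcription factors of mesenchymal cells, were at most 4.97 and 19.9 in any library.

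**Figure D5:**
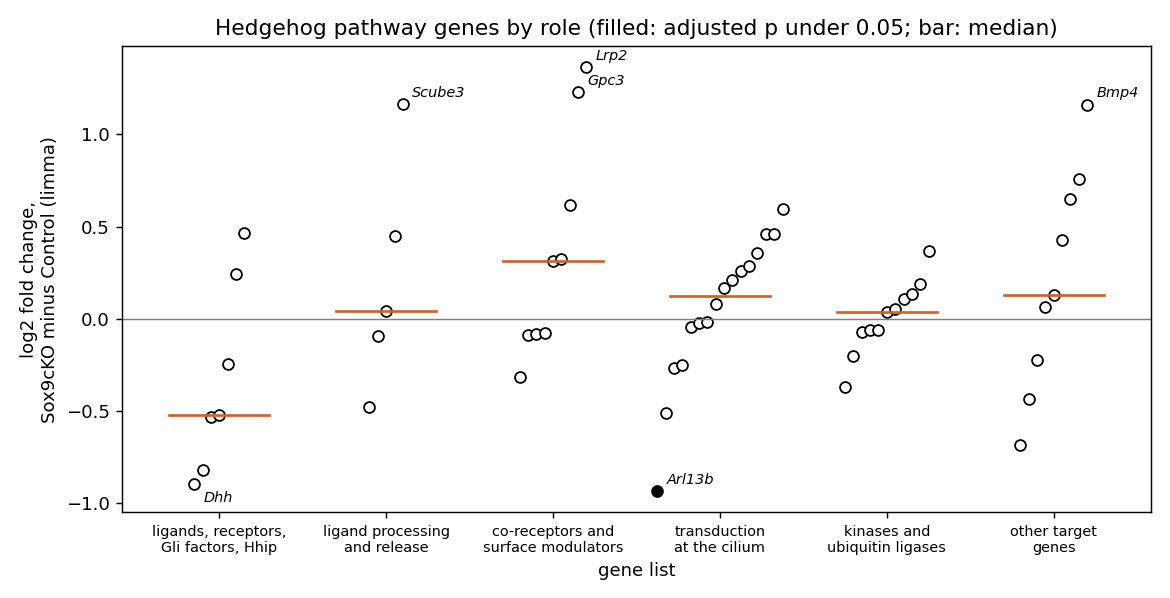
Log2 fold change (Sox9cKO minus Control, limma) of each tested Hedgehog gene and of the 5 other pathway lists, with an orange bar at each list's median and a filled point where the adjusted p was under 0.05. Arl13b (-0.94) is the only filled point.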

How the data were processed

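RNA-seq of 3 Control and 3 Sox9cKO libraries was used. Per the labels' protocols, total RNA was depleted of ribosomal RNA and made into stranded libraries with molecular identifiers. The submitters' processing notes name DESeq2 1.36.0 and GRCm39, with no role. The aligner, annotation and use of identifiers and strand are not given in the sources used here.

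The authors deposited a signal per gene, namely gene counts divided by 1 size factor per library. Every value was a whole multiple of its column's smallest value above 0 (100% within 0.001 reads), which gave whole reads. The size factors were 0.868 to 1.19. No row had fewer than 10 reads in total; genes below that were not used here.

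The test was limma 3.58.1 under R 4.3.3 (eBayes with an intensity trend, two-sided) on log2 of the value plus 1, for genes whose mean was 10 or more, with Benjamini-Hochberg adjustment over all genes and a threshold of 0.05. Scripts were tested on simulated data. Alternatives were pseudocounts, filters, TMM and quantile scaling, no trend, a replicate block, edgeR 4.0.16 and DESeq2 1.42.0 on the recovered reads, leaving out each library, and an endothelial covariate that was chosen after seeing the data. Same-numbered libraries deviated together (r = 0.207, 0.472 and 0.542 across genes, and -0.437 to 0.0476 for other pairs), and the numbering in the titles is the source of this pairing. Libraries of 1 group differed by more than counting error (chi-square over its degrees of freedom 17.9 to 39.5), so each counted as 1 sample.

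The members, pathway lists and marker lists were chosen with earlier results of these data known. Named genes were all members, Sox9, called pathway genes, up to 4 of the most abundant genes per pathway list and the 3 nearest profiles per member. Other pathway genes were named after their values were seen, and some genes of the lists are not reported here. Exon lengths and overlaps came from GENCODE M21 (GRCm38), upstream sequences from RefSeq (GRCm38.p6, 7 of 9 members matched, all but Shh and Gli1). Coordinates are on that build, not on GRCm39.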

Additional observations from a re-analysis of the deposited data

How the results depend on the processing

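No Hedgehog member passed the threshold under any of the 12 alternatives or the 6 fits that each left out 1 library, where it could be tested. The lowest adjusted p was 0.0672 (Ptch1, DESeq2). Ptch1 kept its sign, from -0.65 to -0.51 over the alternatives and -0.60 to -0.40 without 1 library. So did Dhh (-0.97 to -0.80 and -1.03 to -0.72), Gli2 (-0.88 to -0.63 and -1.12 to -0.36), Smo (0.11 to 0.31 and 0.074 to 0.41), Gli1 (0.29 to 0.74 and 0.36 to 0.72) and Hhip (-0.80 to -0.32 and -0.74 to -0.18). The estimate for Ihh changed sign with edgeR (0.028) and DESeq2 (0.076) and ranged from -0.89 to 0.33 without 1 library; the cause was not tested. At the minimum mean of 50, Ihh, Ptch1 and Smo were the members with a value. Without a filter, Shh and Gli3 had adjusted p-values of 0.564 and 0.559 (limma). Sox9 stayed lower and called throughout (-0.9997 to -0.88).

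The number of genes called over the whole table was 510, against 1381 with the replicate block, 1160 with edgeR and the replicate block, 1240 with DESeq2 and 200 to 389 without 1 library. The number of other pathway genes called was 1, against 0 without the intensity trend, 3 with the replicate block, 4 with edgeR and the replicate block, 3 with DESeq2 and 0 to 1 without 1 library. For these counts the cause was not tested, except that leaving out a library leaves fewer samples. The replicate block changed the call of no member. Shh, Gli1, Gli3 and Hhip rest on 4 to 30 reads a library, so the counting interval of each single value is wide (1.09 to 10.2 for 4 reads).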
